A study of Mus musculus with 28 samples.

Results

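The effect of lipopolysaccharide (LPS) after 6 h was measured in 4 of the 28 libraries of a study of mouse dendritic cells, and all 3147 gene rows of the RNA table entered the comparison. The cells had been grown with GM-CSF from the bone marrow of female C57BL/6J mice aged 6 to 8 weeks. On day 9 of culture they received either LPS of E. coli K12 at 100 ng per ml or no stimulus (mock), and both groups were harvested 6 h later. Isotope-labelled medium was replaced at time 0 in both groups. Each group had 2 libraries of strand-specific, polyadenylated RNA, numbered replicate 1 and 2. Whether these came from separate cultures or animals is not in the labels, and the spread behind each p-value is that between libraries, possibly a technical one. Levels are in transcripts per 1000000 transcripts (TPM), a unit corrected for transcript length. It sums to 1000000 over the listed genes in every library. Sequencing depth is unknown from such values.

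LPS comes from the outer membrane of Gram-negative bacteria. It is bound by Cd14 and sensed by Tlr4. The adaptor Myd88 leads from Tlr4 to NF-kB and to inflammatory genes such as Il1b and Ptgs2. A further arm of Tlr4 signalling activates Irf3 and the secretion of type I interferon, which acts back on the cells through Stat2 and Irf9 and switches on antiviral genes. Dendritic cells that sense LPS mature: they raise costimulatory receptors such as Cd40, change how they take up and present antigen, and reorganise their metabolism and cytoskeleton. Cultures of this kind also hold macrophages and granulocytes, and in bulk RNA fewer cells of a type cannot be told apart from less RNA per cell.

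At 6 h the largest changes were rises, led by Rsad2, Ifit3, Cmpk2 and Cd40, while on the deposited scale more genes fell than rose. In limma's moderated test on log2(TPM + 1), with Benjamini-Hochberg adjustment over all 3147 genes, 353 genes rose (11.2% of those tested) and 945 fell (30%) at an adjusted p under 0.05. Below, "rose" and "fell" are used for genes past this test, and log2 fold changes are LPS minus mock with their standard error. Of the genes that rose, 124 changed at least 4-fold, 34 at least 16-fold and 8 at least 256-fold. Of those that fell, 127 changed at least 4-fold, 2 at least 16-fold and 0 at least 64-fold. Leaving out mock replicate 1 or 2 or LPS replicate 1 or 2 gave 1104, 998, 941 and 962 called genes. In all 1298 called genes the LPS libraries did not overlap the mock libraries, as was so for 69.1% of all genes.

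The risers also took over a large share of the listed RNA. The 353 genes held 5.83% and 5.18% of all TPM in the mock libraries and 25.3% and 24.4% in the LPS libraries. The 945 genes that fell went from 20.4% and 22.1% to 11.2% and 11.1%. Each library sums to a fixed total, and the median gene stood at -0.44 on the log2 scale. Dividing each library by its median ratio to the others moved that median to -0.02 and gave 568 genes that rose (18%) and 464 that fell (14.7%). All 353 rises and 464 of the 945 falls were called on both scales, and no gene that fell as deposited rose after rescaling. With quantile normalization the median was -0.16, and 446 genes rose and 511 fell (30.4% in all). Falls that did not pass after rescaling are named as such below. Counts of lists below stand against these shares of all genes: 11.2% and 30% as deposited, 18% and 14.7% after rescaling. Spearman's rho across genes between fold change and GC content was -0.21, and that for transcript length was 0.04. An alternative added after the data were seen took both trends out of each library and left 566 rises and 431 falls (31.9% in all).

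**Figure D1:**
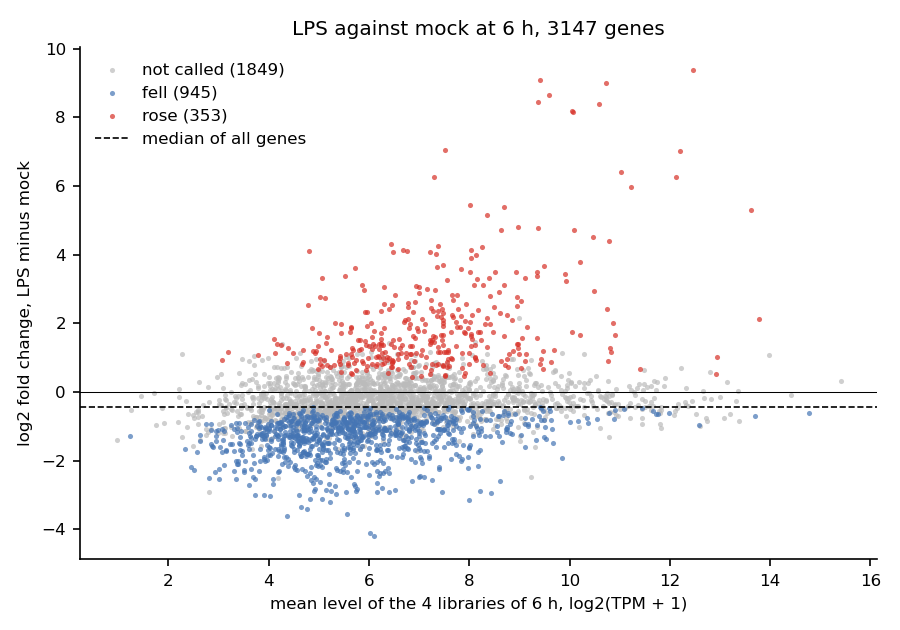
Log2 fold change (LPS minus mock at 6 h) of 3147 genes against their mean level in the 4 libraries, log2(TPM + 1); red points rose (353), blue points fell (945), grey points were not called (1849), and the dashed line is the median of all genes at -0.44. The rises reach above 8 on the log2 scale while the falls stay above -5.

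Type I interferon response genes held the most rises of any list described here. Of 46 measured members 45 rose and 0 fell, with a median log2 fold change of 3.35 against -0.44 over all genes, and the same counts were obtained after rescaling. The exception was Ifi30, a lysosomal thiol reductase, at 917 and 483 TPM in the mock libraries and 468 and 413 TPM in the LPS libraries. Both LPS libraries lay below both mock libraries, but the change of -0.60 ± 0.44 did not pass the test (limma, adjusted p = 0.3). Rsad2 encodes viperin, an enzyme that makes a chain-terminating nucleotide, and stood at 20.5 and 12.5 TPM in the mock libraries and 10618 and 12016 TPM in the LPS libraries. That was a change of 9.37 ± 0.55 on the log2 scale, the largest of all genes (adjusted p = 1.3e-09). Cmpk2, a nucleotide kinase, went from 9.29 and 3.19 to 3454 and 3275 TPM (9.00 ± 0.48). Leaving out single libraries put Cmpk2 between 8.35 and 9.65, according to which mock library remained.

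The Ifit proteins bind foreign RNA and block its translation. Ifit1 stood at 8.72 and 7.72 TPM in the mock libraries and 2955 and 3218 TPM in the LPS libraries (8.39 ± 0.39) and Ifit2 went from 7.60 and 5.57 to 2128 and 2168 TPM (8.16 ± 0.33). Ifit3 was listed at 5.21 TPM in mock replicate 1 and at practically 0 in mock replicate 2, against 1244 and 1459 TPM with LPS. Its fitted change of 9.08 ± 0.67 therefore depended on the 1 TPM added before the logarithm and on the mock library used, with 7.56 when 5 TPM was added and 7.76 to 10.40 without single libraries. Isg15, a ubiquitin-like modifier, was among the most abundant of the family at 73.2 and 69.3 TPM in the mock libraries and 8551 and 10107 TPM in the LPS libraries (7.01 ± 0.33). Its conjugating enzyme Ube2l6 went from 124 and 177 to 766 and 923 TPM (2.50 ± 0.33). In each of these genes both LPS libraries lay far above both mock libraries. The groups did not overlap in any called gene, nor in 69.1% of all genes.

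Sensors of viral RNA rose as well. Ifih1, which encodes the sensor Mda5, stood at 9.11 and 12.2 TPM in the mock libraries and 507 and 508 TPM in the LPS libraries (5.46 ± 0.28), and Ddx58, the sensor Rig-I, went from 20.9 and 29.0 to 302 and 359.7 TPM (3.69 ± 0.20). Their relative Dhx58, in the row Dhx58;D11lgp2, changed by 4.09 ± 0.29. The 2'-5' oligoadenylate synthetase Oas3 stood at 14.8 and 16.6 TPM in the mock libraries and 316 and 316 TPM in the LPS libraries (4.25 ± 0.28). Stat2, a transcription factor that carries the interferon signal, went from 52.4 and 67.8 to 577 and 637 TPM (3.32 ± 0.24). The smallest change among the 45 was that of Lgals3bp, a secreted glycoprotein, at 148 and 57.3 TPM in the mock libraries and 366 and 328 TPM in the LPS libraries (1.90 ± 0.56, adjusted p = 0.012). Its mock libraries lay far apart, and without single libraries its change ran from 1.22 to 2.57, with the call lost without mock replicate 2 or LPS replicate 1.

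All 8 measured interferon-inducible GTPases, which attack the vacuoles of intracellular microbes, rose, with a median of 4.65. Gbp2 stood at 114 and 123 TPM in the mock libraries and 2649 and 2805 TPM in the LPS libraries (4.51 ± 0.26) and Gbp3 went from 36.4 and 31.0 to 905 and 1019 TPM (4.80 ± 0.28). Irgm1, which regulates the other family members, went from 36.4 and 24.9 to 625 and 529.5 TPM (4.21 ± 0.28). Iigp1, in the row IIGP;Iigp1, was barely listed in mock cells at 0.719 and 3.16 TPM and reached 277 and 446 TPM (7.04 ± 0.56, 5.71 with 5 TPM added, 6.41 to 7.68 without single libraries). The 8 genes together held 298 and 236 TPM in the mock libraries and 6809 and 6775 TPM in the LPS libraries.

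**Figure D2:**
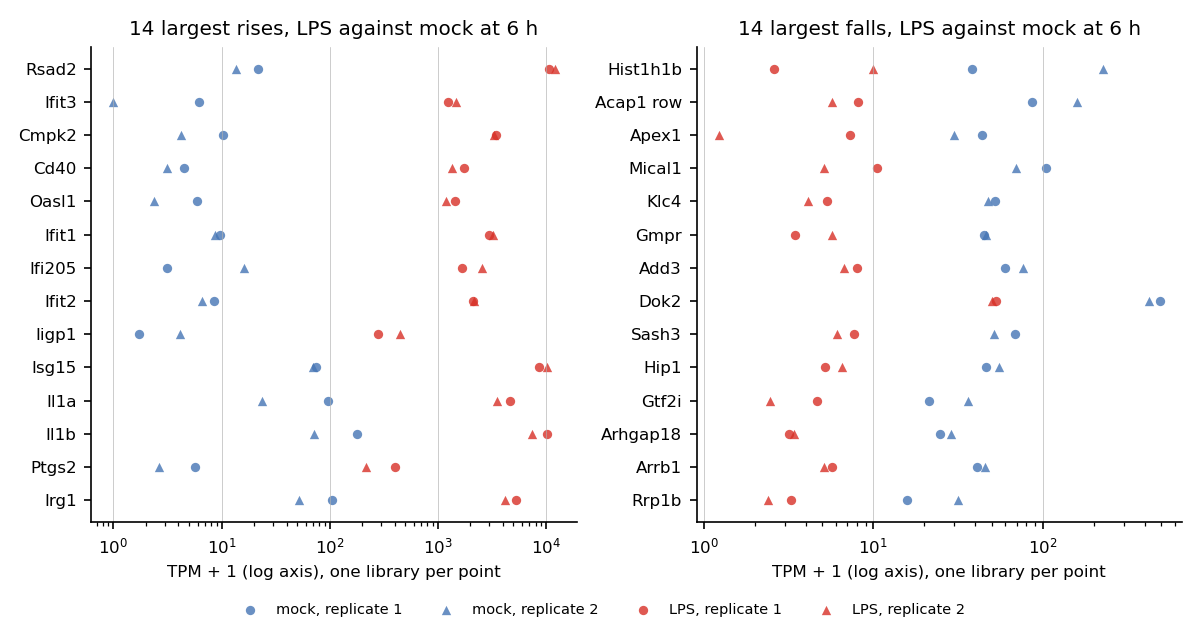
Level of the 14 genes with the largest rises (left) and the 14 with the largest falls (right) among called genes, as TPM + 1 on a log axis, with 1 point per library; blue is mock, red is LPS, circles are replicate 1 and triangles replicate 2. Only genes without overlap between the groups could be chosen, so the separation of LPS and mock points follows from the choice and is not a result. The distance between LPS and mock points is larger on the left.

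Because these genes moved together, the bases before their start sites were searched for the interferon-stimulated response element, a site bound by Irf factors. The letters searched were GAAA, any 2 bases and GAAA, on either strand, in the 250 bases upstream of RefSeq starts of the mouse build GRCm38.p6, for the 2597 rows of the table that matched a RefSeq symbol, which are 2590 different symbols. Of the matched genes that rose, 34 of 296 held a match (11.5%), against 14 of 788 that fell (1.78%), 49 of 1510 not called (3.25%), 96 of all 2590 (3.71%) and 936 of 27025 in the whole promoter table (3.46%). Among matched type I interferon response genes 13 of 41 held one (31.7%), and among the interferon-inducible GTPases 6 of 7 (85.7%). A match is a run of letters and not a measured binding site, and no binding data were used here. The last 160 bases before the start are shown for 6 of the genes described above, chosen because their windows hold a match. They are read 5' to 3' on the strand of the gene, with matches in capitals.
Rsad2: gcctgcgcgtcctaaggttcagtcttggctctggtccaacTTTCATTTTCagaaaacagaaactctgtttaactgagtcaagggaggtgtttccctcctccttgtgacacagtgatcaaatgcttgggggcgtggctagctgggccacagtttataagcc
Ifit1: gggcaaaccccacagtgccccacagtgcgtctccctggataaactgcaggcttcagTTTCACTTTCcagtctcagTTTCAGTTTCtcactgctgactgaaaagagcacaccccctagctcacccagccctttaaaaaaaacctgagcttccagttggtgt
Ifit3: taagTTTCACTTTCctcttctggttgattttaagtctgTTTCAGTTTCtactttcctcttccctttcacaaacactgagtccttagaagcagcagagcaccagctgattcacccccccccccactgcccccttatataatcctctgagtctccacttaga
Isg15: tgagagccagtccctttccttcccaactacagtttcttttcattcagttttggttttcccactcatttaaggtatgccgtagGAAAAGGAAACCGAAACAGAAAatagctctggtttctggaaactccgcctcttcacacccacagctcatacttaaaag
Gbp2: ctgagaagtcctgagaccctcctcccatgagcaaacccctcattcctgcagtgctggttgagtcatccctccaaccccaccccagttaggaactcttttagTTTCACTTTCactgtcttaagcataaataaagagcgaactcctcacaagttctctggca
Gbp3: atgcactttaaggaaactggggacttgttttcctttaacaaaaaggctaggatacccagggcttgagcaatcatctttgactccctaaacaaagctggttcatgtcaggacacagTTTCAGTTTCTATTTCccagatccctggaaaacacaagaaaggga

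These windows are chr12:26456453-26456612 on the minus strand for Rsad2, chr19:34640729-34640888 on the plus strand for Ifit1, chr19:34583369-34583528 on the plus strand for Ifit3, chr4:156200819-156200978 on the minus strand for Isg15, chr3:142620503-142620662 on the plus strand for Gbp2 and chr3:142559884-142560043 on the plus strand for Gbp3. In Rsad2 the single match ends 110 bases before the start, and in Gbp2 49 bases before it. Ifit1 and Ifit3 hold 2 separate matches each, ending 94 and 75 bases and 146 and 112 bases before the start. The capitals of Isg15 are 3 overlapping matches that end 68, 62 and 56 bases before the start, and those of Gbp3 are 2 that overlap and end 35 and 29 bases before it. Rsad2, Ifit1, Ifit3, Gbp2 and Gbp3 carry the letters as TTTC repeated with 2 bases between, the reverse complement, and Isg15 as GAAA repeated. The windows of Ifit2, Cmpk2, Oasl1 and Il1b, which also rose, hold no match to these letters. Neither does the window of another RefSeq start of Gbp3. One form of the NF-kB site, GGGA, any 1 base and TTTCC, was found in 3 of the 296 risers and 0 of the 788 fallers, and in 7 of all 2590 matched genes.

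Genes of MHC class I presentation cut proteins into peptides and load them for display to T cells. Of 13 measured members 9 rose (69.2%, median 1.19), against 11.2% of all genes. Tap1, a subunit of the peptide transporter, stood at 88.9 and 89.2 TPM in the mock libraries and 686 and 672 TPM in the LPS libraries (2.92 ± 0.15), and its partner Tap2 went from 113 and 158 to 364 and 429 TPM (1.56 ± 0.22). The catalytic subunits of the immunoproteasome rose, with Psmb9 from 152 and 123 to 597 and 491 TPM (1.97 ± 0.27), Psmb10 at 1.62 ± 0.18 and Psmb8 at 1.19 ± 0.24. The ER chaperones of the same list did not pass the test, with Calr at -0.31 ± 0.19, Canx at -0.35 ± 0.20 and Pdia3 at -0.17 ± 0.18. Of 7 MHC class II genes, which present engulfed antigen, 0 rose and 1 fell. H2-Aa stood at 3900.4 and 2689 TPM in the mock libraries and 4522 and 4137 TPM in the LPS libraries (0.42 ± 0.32, adjusted p = 0.31) and Cd74, the invariant chain, at 8988 and 3283 TPM in the mock libraries and 9525 and 6879 TPM in the LPS libraries (0.58 ± 0.71, adjusted p = 0.53), where the mock libraries differed more from each other than the groups did. The member that fell, the protease Lgmn, changed by -0.78 ± 0.19, and its call was lost after rescaling, where H2-Aa and the protease Ctsl rose.

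Inflammatory mediators rose. Of 5 measured cytokines and chemokines 4 rose, and Ccl6, the fifth, stood at 13632 and 8650.5 TPM in the mock libraries and 9944 and 8353 TPM in the LPS libraries (-0.25 ± 0.24). Il1b, the precursor of interleukin 1 beta, stood at 177 and 70.9 TPM in the mock libraries and 10207 and 7374 TPM in the LPS libraries (6.26 ± 0.60), and Il1a went from 95.6 and 22.6 to 4624 and 3554 TPM (6.41 ± 0.66). Their antagonist Il1rn stood at 481 and 218 TPM in the mock libraries and 2868 and 2174 TPM in the LPS libraries (2.94 ± 0.50). Ccl5, which attracts T cells, was the gene with the largest gain in TPM, from 885 and 424 to 25371 and 23271 TPM (5.31 ± 0.40). In all 4 genes mock replicate 1 was over the level of mock replicate 2, and Il1b and Il1a ran from 5.61 to 6.91 and from 5.39 to 7.43 without single libraries. Il1rn had 2.37 without mock replicate 2 and Ccl5 4.78.

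Of 10 dendritic cell maturation genes 7 rose (70%) and 0 fell (median 2.24), against 11.2% and 30% of all genes. Cd40, the receptor through which helper T cells license dendritic cells, stood at 3.50 and 2.14 TPM in the mock libraries and 1729.8 and 1344 TPM in the LPS libraries (8.66 ± 0.42). Its level in mock cells was close to the 1 TPM added, and the change was 7.62 with 5 TPM added. Cd274, the inhibitory ligand Pd-l1, went from 136 and 148 to 936 and 864 TPM (2.66 ± 0.22). Marcksl1, an actin-binding membrane protein, went from 196 and 177 to 1851 and 1681 TPM (3.23 ± 0.30), and Stat5a, which relays GM-CSF signals, from 31.8 and 29.2 to 297 and 212 TPM (3.00 ± 0.30). The row H1f0;Icam1 joins 2 genes and stood at -0.13 ± 0.18, a value that cannot be assigned to either.

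The NF-kB pathway had 14 measured genes, of which 9 rose (64.3%) and 1 fell (7.14%), with a median of 1.10. The subunit precursors Nfkb1 and Nfkb2 stood at 178 and 146 TPM in the mock libraries and 629 and 473 TPM in the LPS libraries (1.75 ± 0.26) and from 81.2 and 59.7 to 352 and 313 TPM (2.24 ± 0.35), and Relb rose by 0.81 ± 0.17. Tank, an adaptor of the kinases that activate Irf3, went from 61.1 and 48.9 to 381 and 327 TPM (2.67 ± 0.35), and those kinases, Tbk1 and Ikbke, changed by 1.71 ± 0.42 and 1.65 ± 0.21. Card9, an adaptor for C-type lectin receptors, was the member that fell, at 81.0 and 56.2 TPM in the mock libraries and 22.0 and 18.3 TPM in the LPS libraries (-1.70 ± 0.26). Rela, the partner subunit of Nfkb1, stood at 86.0 and 68.1 TPM in the mock libraries and 132 and 84.7 TPM in the LPS libraries, with overlapping groups (0.46 ± 0.32, adjusted p = 0.27), and was called as a rise only after rescaling. Among 15 genes of the LPS receptor complex and Toll-like receptor signalling 4 rose (26.7%) and 3 fell (20%). Of all genes 11.2% rose and 30% fell. After rescaling 6 of the 15 rose and 1 fell. Tlr7, the endosomal receptor for single-stranded RNA, went from 10.1 and 5.00 to 62.0 and 48.3 TPM (2.77 ± 0.44) and Irak3, an inhibitor of the Myd88 complex in the row Irak3;Irak-M, changed by 1.12 ± 0.27. Irak4, a kinase of that complex, fell from 36.8 and 43.1 to 18.5 and 20.7 TPM (-0.99 ± 0.18), a call not made with quantile normalization. Cd14 stood at 343 and 84.6 TPM in the mock libraries and 1025 and 571 TPM in the LPS libraries and narrowly missed the threshold (2.16 ± 0.84, adjusted p = 0.05), with a rise called after rescaling.

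**Figure D3:**
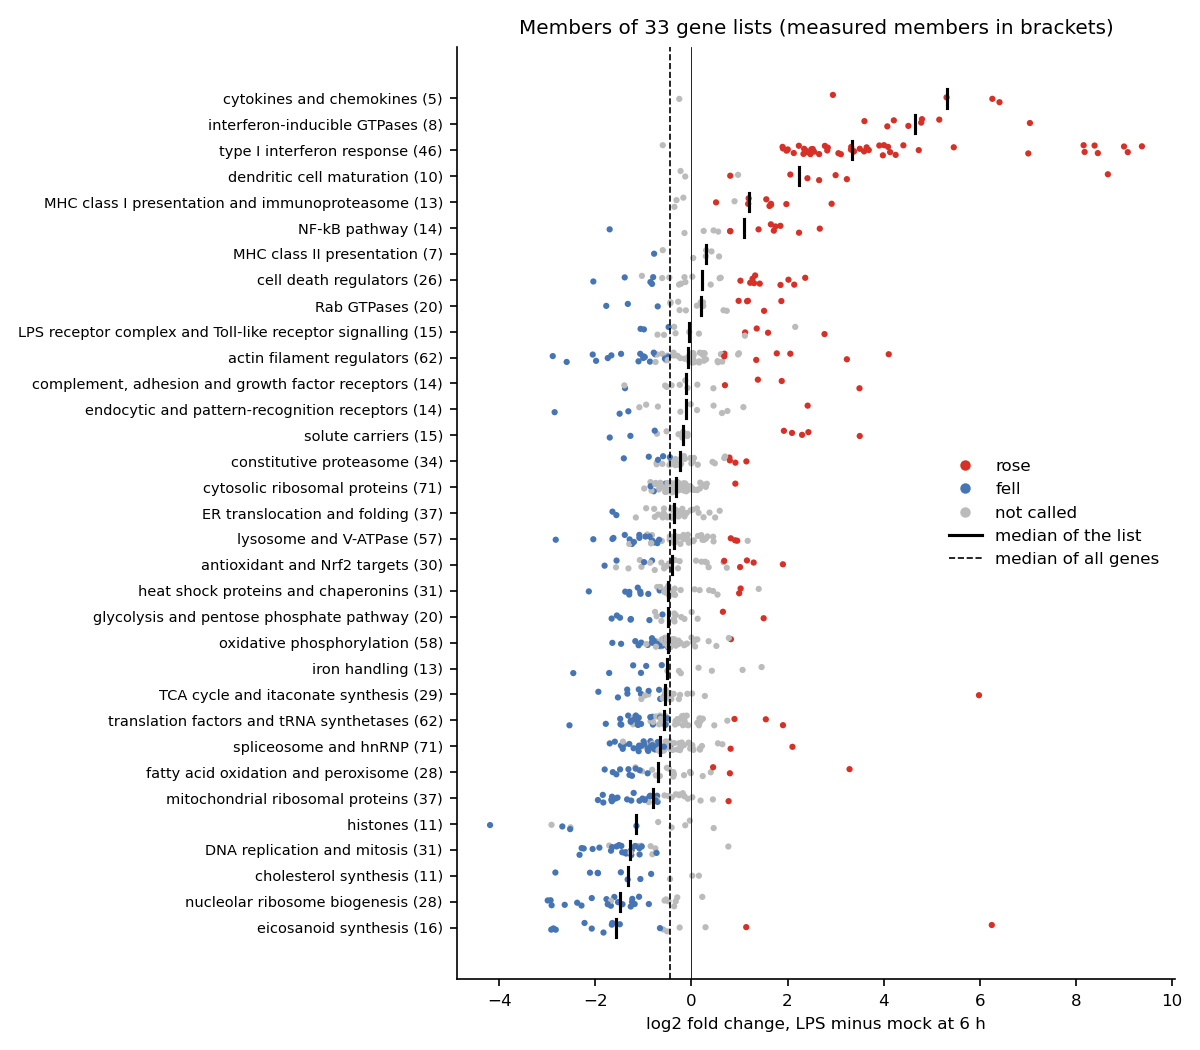
Log2 fold change (LPS minus mock at 6 h) of every measured member of 33 gene lists, with red for genes that rose, blue for genes that fell and grey for genes not called; black bars are list medians and the dashed line is the median of all genes, -0.44. Interferon, cytokine and maturation lists lie to the right, and eicosanoid, nucleolar, cholesterol and replication lists lie furthest to the left.

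Enzymes of eicosanoid synthesis changed in both directions. Of 16 measured genes 2 rose and 10 fell, with a list median of -1.57, and 3 rose and 9 fell after rescaling. Ptgs2, the inducible cyclooxygenase, stood at 4.72 and 1.63 TPM in the mock libraries and 402 and 215 TPM in the LPS libraries (6.25 ± 1.05, 5.22 with 5 TPM added). Pla2g4a, the phospholipase that frees arachidonic acid, went from 16.6 and 19.7 to 41.4 and 40.6 TPM (1.14 ± 0.23). Ptgs1, the constitutive cyclooxygenase, fell from 123 and 129 to 15.3 and 16.3 TPM (-2.92 ± 0.23). The leukotriene branch was lower at several steps. Alox5ap, which feeds arachidonic acid to 5-lipoxygenase, stood at 1456 and 968 TPM in the mock libraries and 475 and 375 TPM in the LPS libraries (-1.49 ± 0.34), and Lta4h, the leukotriene A4 hydrolase, went from 389 and 661 to 56.9 and 82.1 TPM (-2.87 ± 0.45). Alox5 itself went from 34.2 and 15.6 to 6.48 and 5.17 TPM (-1.83 ± 0.42), a call lost with quantile normalization. Tbxas1, the thromboxane synthase, changed by -2.07 ± 0.42. In the fallers named here both LPS libraries lay below both mock libraries, as in all 945 genes that fell.

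Of the cell death regulators more rose than fell. Of 26 measured genes 10 rose (38.5%) and 5 fell (19.2%), against 11.2% and 30% of all genes. After rescaling 13 rose and 1 fell, against 18% and 14.7% of all genes. Casp1, the inflammasome protease, stood at 46.2 and 52.0 TPM in the mock libraries and 232 and 286 TPM in the LPS libraries (2.37 ± 0.23), and the inflammasome sensor Nlrp3 went from 64.8 and 66.1 to 176 and 155 TPM (1.33 ± 0.23). Mlkl, the executor of necroptosis, went from 31.1 and 50.2 to 166 and 189.7 TPM (2.14 ± 0.24). Casp8, an initiator of apoptosis, changed by 1.42 ± 0.35. Fas, a death receptor, went from 62.4 and 98.7 to 174 and 196 TPM (1.22 ± 0.24). Casp6 was the member that fell on both scales, at 30.1 and 35.3 TPM in the mock libraries and 12.2 and 4.06 TPM in the LPS libraries (-2.04 ± 0.41), with -2.73 when LPS replicate 1 and -1.35 when LPS replicate 2 was left out.

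The share of metabolic genes that fell was close to the 30% of all genes in 3 lists, and single genes rose strongly. Irg1 makes itaconate from an intermediate of the TCA cycle and stood at 104 and 51.2 TPM in the mock libraries and 5324 and 4130.1 TPM in the LPS libraries (5.98 ± 0.45). Of the 29 genes of the TCA cycle and itaconate synthesis it was the only one that rose, while 10 fell (34.5%), 3 of them also after rescaling. These 3 were Idh1, the cytosolic isocitrate dehydrogenase, from 229 and 231 to 65.5 and 53.8 TPM (-1.94 ± 0.18), Idh3a, of the mitochondrial enzyme (-1.53 ± 0.36, not called with quantile normalization), and Aco1, the cytosolic aconitase (-1.05 ± 0.21). Of 20 genes of glycolysis and the pentose phosphate pathway 2 rose and 7 fell (35%), 4 of these also after rescaling. The pentose phosphate enzymes Tkt, Rpia and Pgls fell by 1.27, 1.66 and 1.55 on the log2 scale, with Tkt at 645 and 839 TPM in the mock libraries and 298 and 312 TPM in the LPS libraries. Gpi1, a glycolytic isomerase, went from 481 and 345 to 183 and 157 TPM (-1.26 ± 0.31). Ldha, Pgk1 and Hk2 did not pass the test, at -0.21 ± 0.30, -0.15 ± 0.29 and 0.13 ± 0.45.

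Of 28 genes of fatty acid oxidation and the peroxisome 3 rose and 10 fell (35.7%), 6 of the falls also after rescaling. Acsl1, which activates long-chain fatty acids, stood at 52.5 and 50.4 TPM in the mock libraries and 563 and 465 TPM in the LPS libraries (3.29 ± 0.24), whereas Hadh and Crat, enzymes of the oxidation of fatty acids and of carnitine transfer, changed by -1.56 ± 0.24 and -1.81 ± 0.35. Of 11 cholesterol synthesis genes 0 rose and 8 fell (median -1.33), 5 of them also after rescaling. Mvd went from 125 and 96.0 to 25.8 and 23.4 TPM (-2.11 ± 0.30) and Cyp51 from 158 and 205 to 38.1 and 54.9 TPM (-1.95 ± 0.33). The isomerase Idi1 did not pass the test, at 148 and 134 TPM in the mock libraries and 164 and 149 TPM in the LPS libraries (0.16 ± 0.23). Among 15 solute carriers 5 rose and 3 fell. Slc7a2, a transporter of arginine and other cationic amino acids, stood at 99.6 and 109 TPM in the mock libraries and 1264 and 1121 TPM in the LPS libraries (3.50 ± 0.26), and Slc15a3, a lysosomal peptide transporter, went from 218 and 136 to 829 and 657 TPM (2.09 ± 0.32). The mitochondrial glutamate carrier Slc25a22 rose by 2.43 ± 0.21 and the aspartate and glutamate carrier Slc25a13 changed by -1.70 ± 0.26.

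Genes of cell proliferation were lower. Of 31 genes of DNA replication and mitosis 0 rose and 23 fell (74.2%, median -1.27), against 30% of all genes. After rescaling 1 rose and 16 fell, when 14.7% of all genes fell. The replicative helicase subunits Mcm7 and Mcm2 went from 66.2 and 90.1 to 12.4 and 17.1 TPM (-2.33 ± 0.26) and from 31.8 and 42.2 to 7.46 and 6.50 TPM (-2.24 ± 0.23). Mcm3 and Mcm5 changed by -1.92 ± 0.25 and -1.67 ± 0.26. The mitotic kinase Cdk1 stood at 83.1 and 66.4 TPM in the mock libraries and 25.4 and 28.1 TPM in the LPS libraries (-1.44 ± 0.20) and the single-strand binding subunit Rpa1 went from 71.9 and 68.5 to 16.9 and 15.4 TPM (-2.06 ± 0.17). One form of the E2F site, TTT, any 1 base and GCGC on either strand, was present in 5 of 27 matched promoters of this list (18.5%) against 79 of 2590 matched genes (3.05%). Across all matched genes it was in 26 of 788 that fell (3.30%), 47 of 1510 not called (3.11%) and 6 of 296 that rose (2.03%). The windows of Mcm7 and Mcm2 hold no match to these letters. Of 11 histone genes 4 fell (36.4%), near the 30% of all genes, 3 of them also after rescaling. With quantile normalization 1 of the 11 fell. The linker histone Hist1h1c went from 162 and 142 to 69.2 and 66.8 TPM (-1.14 ± 0.23). Hist1h1b had the lowest fitted value of all called genes, at 37.2 and 224 TPM in the mock libraries and 1.59 and 8.98 TPM in the LPS libraries (-4.19 ± 1.47). Its call was lost after rescaling and without mock replicate 2 or LPS replicate 1, with values from -5.47 to -2.91. Replication-dependent histone genes are near-identical copies whose RNA mostly lacks a poly(A) tail, so their levels in polyadenylated RNA are uncertain.

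The nucleolar machinery that builds ribosomes was lower as a group. Of 28 genes 0 rose and 20 fell (71.4%, against 30% of all genes), with a median of -1.48. After rescaling 16 fell and the median was -1.08, when 14.7% of all genes fell. Fbl, the methyltransferase of ribosomal RNA, went from 299 and 246 to 95.4 and 82.2 TPM (-1.60 ± 0.21), and Gar1, of the pseudouridylation complex, from 75.2 and 66.2 to 14.5 and 12.8 TPM (-2.29 ± 0.27). Nolc1, a nucleolar phosphoprotein, stood at 41.5 and 69.0 TPM in the mock libraries and 6.82 and 8.84 TPM in the LPS libraries (-2.64 ± 0.35). Nop58, a core protein of the methylation complex, went from 93.2 and 206 to 13.8 and 22.3 TPM (-2.91 ± 0.65). Mybbp1a changed by -1.70 ± 0.19. Of the 71 cytosolic ribosomal proteins 1 rose and 5 fell (median -0.32), and 3 rose and 0 fell after rescaling. With the replicate number as a block 33 of the 71 fell, when 1351 of all 3147 genes fell, and 21 of the 28 nucleolar genes fell. Rps27l, a variant of Rps27, was the one that rose as deposited, at 1186 and 1214 TPM in the mock libraries and 2415 and 2117 TPM in the LPS libraries (0.91 ± 0.17).

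Mitochondrial ribosomal proteins fell in 22 of 37 members (median -0.79), 12 of which kept the call after rescaling. Mrpl12 went from 201 and 215 to 51.4 and 55.0 TPM (-1.95 ± 0.19) and Mrpl28 from 156 and 157 to 52.6 and 50.2 TPM (-1.59 ± 0.18). Mrpl13, in the row Mrpl13;MRPL13, was the member that rose (0.77 ± 0.19). Of 58 rows of oxidative phosphorylation 1 rose and 17 fell (29.3%, median -0.49), near the 30% and the median of -0.44 of all genes. After rescaling 3 rose and 3 fell. The complex I subunits Ndufs7, Ndufb10 and Ndufa8 were the 3, with Ndufs7 at 317 and 460.0 TPM in the mock libraries and 119.9 and 123 TPM in the LPS libraries (-1.65 ± 0.26). Cycs, the electron carrier cytochrome c, was the member that rose, from 112 and 107 to 177 and 212 TPM (0.82 ± 0.18).

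Of 71 genes of the spliceosome and hnRNP proteins 2 rose and 30 fell (42.3%), against 30% of all genes. Only 6 of the falls passed after rescaling, when 14.7% of all genes fell. Hnrnpr and Prpf19 were among these 6, at -1.70 ± 0.35 and -1.47 ± 0.20. Prpf38a, a splicing factor, went the other way, from 38.5 and 39.2 to 155 and 187 TPM (2.10 ± 0.26). Of 62 translation factors and tRNA synthetases 3 rose and 21 fell (33.9%), near the 30% of all genes. Of the falls 10 also passed after rescaling. Wars, the tryptophan tRNA synthetase, went from 52.7 and 43.7 to 169.6 and 119 TPM (1.55 ± 0.34) and Rars, that for arginine, from 83.0 and 81.5 to 149.5 and 158 TPM (0.90 ± 0.14). The third riser was Eif2ak2, the antiviral kinase Pkr, which is also an interferon response gene. Synthetases for other amino acids fell, with Sars at 126 and 115 TPM in the mock libraries and 44.6 and 55.0 TPM in the LPS libraries (-1.26 ± 0.22), Vars at -1.48 ± 0.31 and Nars at -1.12 ± 0.20. Of 31 heat shock proteins and chaperonins 2 rose (6.45%) and 9 fell (29%), against 11.2% and 30% of all genes. Among chaperones the mitochondrial Hspd1 and Hspa9 fell by 1.29 and 1.38 on the log2 scale. Hspa9 stood at 227 and 239.7 TPM in the mock libraries and 89.3 and 88.9 TPM in the LPS libraries. The Hsp70 cofactors Dnaja1 and Dnaja2, in rows with other names, rose by 0.99 ± 0.20 and 1.02 ± 0.21. Of 37 genes of ER translocation and folding 0 rose and 2 fell, Mogs and Uggt1, both glycoprotein-processing enzymes. Of 34 constitutive proteasome genes 4 rose (11.8%) and 5 fell (14.7%), against 11.2% and 30% of all genes. Of the falls 1 also passed after rescaling.

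Of 14 measured receptors for uptake and pattern recognition 3 fell (21.4%) and 1 rose (7.14%), shares below those of all genes (30% and 11.2%). Clec10a, a galactose-binding lectin, went from 148 and 171 to 20.5 and 22.1 TPM (-2.85 ± 0.36). Mrc1, the mannose receptor, stood at 261 and 332 TPM in the mock libraries and 102 and 106 TPM in the LPS libraries (-1.49 ± 0.27), and the endocytic receptor Lrp1 went from 66.8 and 84.2 to 26.3 and 33.3 TPM (-1.31 ± 0.21). Fcgr1, the high-affinity receptor for immunoglobulin G, was the one that rose, from 61.5 and 47.8 to 282 and 307 TPM (2.42 ± 0.41). Of 57 genes of the lysosome and V-ATPase 3 rose and 16 fell (28.1%), near the 30% of all genes. After rescaling 9 rose and 7 fell. The glycosidases Manba and Neu1 fell on both scales (-2.04 ± 0.39 and -1.24 ± 0.16), with Manba at 56.3 and 54.1 TPM in the mock libraries and 12.5 and 12.9 TPM in the LPS libraries. Of 20 Rab GTPases, switches of vesicle traffic, 5 rose and 3 fell. Rab32 and Rab8b, the latter in the row Rab8B;AK160964;Rab8b, rose by 1.51 ± 0.36 and 1.87 ± 0.25, and Rab31, in the row Rab22B;Rab31, went from 59.2 and 71.1 to 18.9 and 17.7 TPM (-1.77 ± 0.21). Cfb, complement factor B, stood at 88.1 and 70.4 TPM in the mock libraries and 877 and 922 TPM in the LPS libraries (3.50 ± 0.36), the largest rise among 14 complement, adhesion and growth factor receptor genes, of which 4 rose and 1 fell.

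Of 62 regulators of the actin cytoskeleton 7 rose (11.3%) and 17 fell (27.4%), close to the shares of all genes (11.2% and 30%), and 17 rose and 8 fell after rescaling. Tmod3, a capping protein, went from 70.2 and 52.8 to 221 and 201 TPM (1.78 ± 0.28). Coro1a, the coronin of leukocytes, stood at 713 and 629.5 TPM in the mock libraries and 112 and 108 TPM in the LPS libraries (-2.60 ± 0.24), and its relative Coro1c changed by -2.05 ± 0.23. Ezr, which ties actin to the membrane, went from 118 and 117 to 30.3 and 27.6 TPM (-1.98 ± 0.19), and Synpo changed by -2.89 ± 0.27. Several of the largest falls among all genes follow. Klc4, a light chain of the motor kinesin, went from 51.0 and 46.5 to 4.35 and 3.14 TPM (-3.40 ± 0.21, -2.62 with 5 TPM added). Dok2, an adaptor that restrains receptor signalling, stood at 489.9 and 424 TPM in the mock libraries and 51.9 and 48.9 TPM in the LPS libraries (-3.15 ± 0.19). Arrb1, an arrestin, went from 40.1 and 44.5 to 4.73 and 4.10 TPM (-3.00 ± 0.30) and Add3, an adducin of the membrane skeleton, from 58.7 and 75.1 to 7.01 and 5.72 TPM (-3.20 ± 0.24). The row of Acap1, listed as mKIAA0050;BC064116;Acap1;Centb1, stood at 85.7 and 158 TPM in the mock libraries and 7.15 and 4.73 TPM in the LPS libraries (-4.10 ± 0.39). Apex1, a DNA repair enzyme, changed by -3.61 ± 0.73, with -4.89 when LPS replicate 1 and -2.32 when LPS replicate 2 was left out.

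Antioxidant genes changed in both directions. Of 30 measured genes 5 rose (16.7%) and 4 fell (13.3%), against 11.2% and 30% of all genes. After rescaling 9 rose and 2 fell. Sod2, the mitochondrial superoxide dismutase, stood at 232 and 247 TPM in the mock libraries and 931 and 867 TPM in the LPS libraries (1.90 ± 0.15), while mitochondrial thioredoxin Txn2 went from 296 and 367 to 107 and 81.6 TPM (-1.81 ± 0.22). Gclm, of glutathione synthesis, went from 208 and 163 to 80.9 and 47.2 TPM (-1.56 ± 0.23). Among 13 iron handling genes 0 rose and 6 fell, 2 of them after rescaling. Alad, of haem synthesis, went from 32.4 and 57.9 to 5.68 and 8.76 TPM (-2.46 ± 0.37). Ftl1, the ferritin light chain, lost the most TPM of all called genes, from 31483 and 36595 to 23055 and 21239 TPM (-0.62 ± 0.15). That call was lost after rescaling (-0.19), as were those of Psap, Crip1, S100a4, Sh3bgrl3 and S100a6, the next in TPM lost. The largest gains in TPM after Ccl5 included the row Mir147;AA467197, which joins a microRNA gene with its host, from 5453 and 5049 to 23753 and 21987 TPM (2.12 ± 0.20).

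How the effect at 6 h differed from that at 2 h was tested directly, as a difference of the LPS effects at both times in the same limma fit. The effect was more positive at 6 h for 79 genes (2.51%) and more negative for 146 (4.64%). After rescaling these counts were 138 (4.39%) and 71 (2.26%), or 6.64% in all, so which direction prevailed depended on the scale. The total was 225, against 126 without mock replicate 1 of 2 h, 121 without LPS replicate 2 of 2 h, 114 without mock replicate 2 of 6 h, 147 without LPS replicate 1 of 6 h and 123 without its replicate 2. Of the 79 genes 72 rose at 6 h, and of the 146 genes 129 fell at 6 h. The difference contains the 6 h effect, so this agreement is partly built in. Of all genes 11.2% rose and 30% fell at 6 h. At 2 h 201 genes rose (6.39%) and 253 fell (8.04%). Among genes that rose at 6 h, 155 had also risen at 2 h, which is 43.9% of the 6 h rises and 77.1% of the 2 h rises. Among genes that fell, 193 had fallen at 2 h, 20.4% of the 6 h falls and 76.3% of the 2 h falls. Of the 46 interferon response genes 17 had a more positive effect at 6 h and 0 a more negative one.

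Kynu, an enzyme of tryptophan breakdown, rose later. At 2 h it stood at 17.4 and 21.0 TPM in the mock libraries and 26.7 and 27.0 TPM in the LPS libraries, and at 6 h at 15.5 and 7.64 TPM in mock and 201 and 206 TPM in LPS libraries. The difference between both effects was 3.63 ± 0.52 on the log2 scale (limma, adjusted p = 4.8e-04). Iigp1 (row IIGP;Iigp1), Gm4902 and 1600014C10Rik differed by 4.83 ± 0.79, 3.43 ± 0.58 and 3.72 ± 0.37. Without single libraries the difference ran from 4.19 to 5.47 for Iigp1 and from 2.64 to 4.22 for Gm4902, and all of these stayed past the threshold. Ifit3 differed by 5.21 ± 0.95, with 1 of its mock libraries of 6 h at practically 0, and ran from 3.89 to 6.53 without single libraries. It was not called when only the compared groups entered the fit (adjusted p = 0.068). Ifitm3, an antiviral membrane protein, was close to the threshold (3.72 ± 1.09, adjusted p = 0.048), and that call was lost without 6 of the 8 libraries compared, each in turn, with values from 2.63 to 4.80.

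C5ar1, the receptor for complement C5a, was higher with LPS at 2 h and not at 6 h. At 2 h it stood at 35.7 and 35.3 TPM in mock and 182 and 179.9 TPM in LPS libraries, and at 6 h at 26.5 and 20.2 TPM in mock and 13.8 and 18.3 TPM in LPS libraries, where it did not pass the test. The difference was -2.83 ± 0.48 (adjusted p = 0.0015). Iqsec1, which activates Arf GTPases, went from higher to lower. Its libraries stood at 34.4 and 41.8 TPM in mock and 66.1 and 72.4 TPM in LPS at 2 h, and at 36.3 and 38.6 TPM in mock and 10.1 and 9.78 TPM in LPS at 6 h (difference -2.66 ± 0.38, adjusted p = 4.8e-04). Lipe, the hormone-sensitive lipase, did the reverse, with 25.7 and 25.0 TPM in mock and 10.2 and 11.4 TPM in LPS at 2 h and 22.2 and 24.5 TPM in mock and 33.1 and 42.7 TPM in LPS at 6 h (difference 1.83 ± 0.32, adjusted p = 0.0023). Add3, Klc4, the Acap1 row and the row listed as 9-Sep had effects of -0.39, -0.78, -0.63 and -0.26 at 2 h and differed by -2.81 ± 0.34, -2.62 ± 0.29, -3.47 ± 0.55 and -2.66 ± 0.29.

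**Figure D4:**
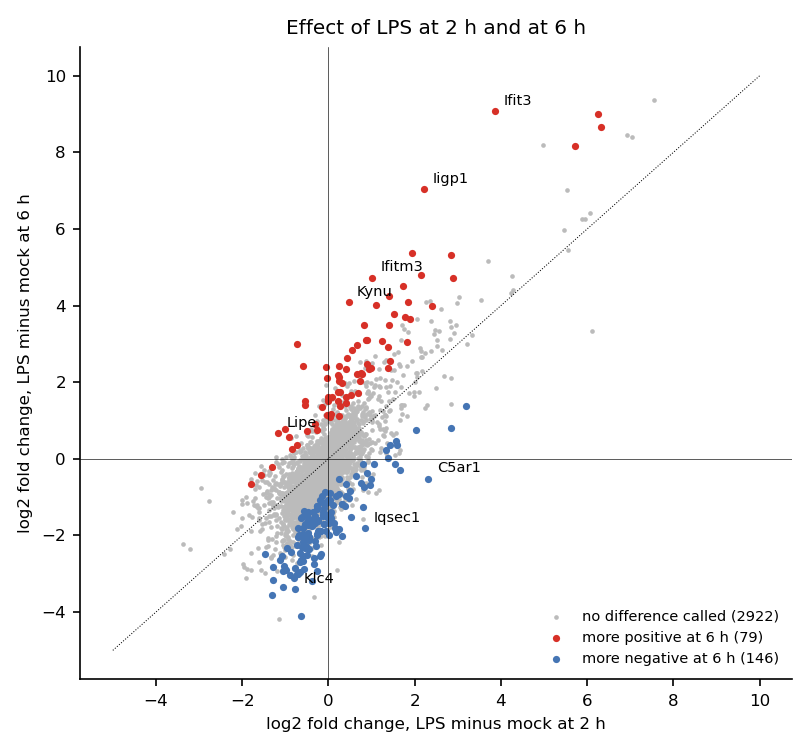
Log2 fold change (LPS minus mock) at 6 h against that at 2 h for 3147 genes; red marks the 79 genes with a more positive effect at 6 h, blue the 146 with a more negative one, grey the 2922 others, and the dotted line is equality. Ifit3, Iigp1 and Kynu lie above the line and C5ar1, Iqsec1 and Klc4 below it.

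**Figure D5:**
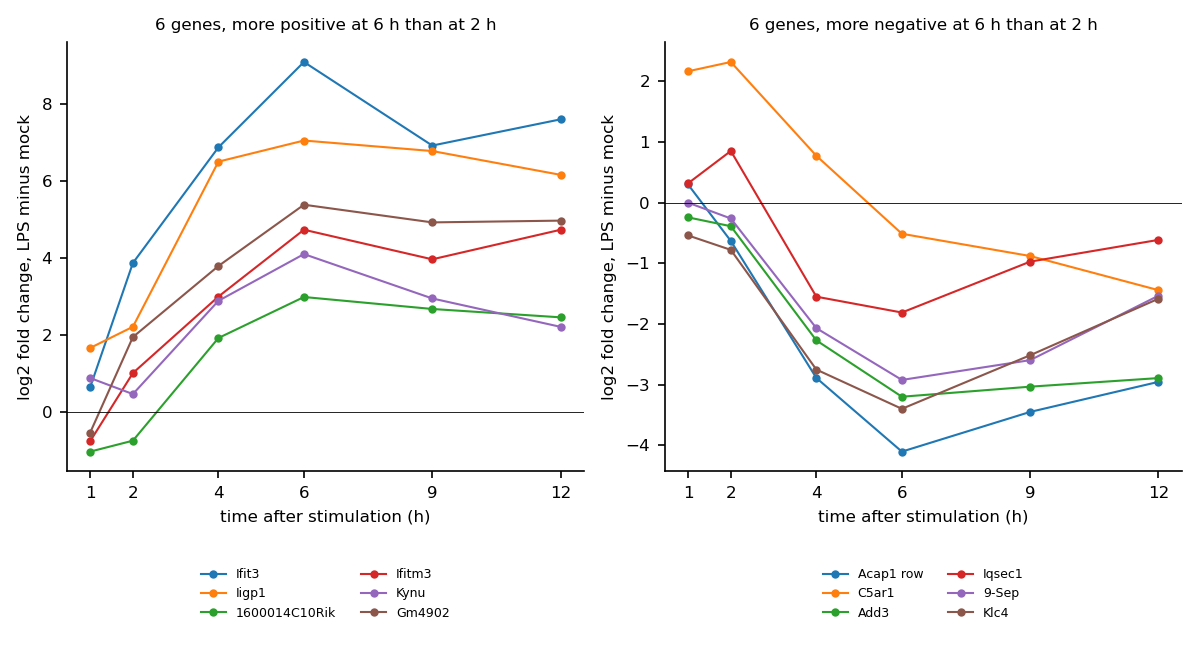
Log2 fold change (LPS minus mock, means of 2 libraries per group) at 1, 2, 4, 6, 9 and 12 h for the 6 genes with the largest called difference in each direction between 6 h and 2 h; each line is a gene. The left genes climb between 2 h and 6 h and the right genes drop between 2 h and 4 h or 6 h. The genes were chosen by this difference, so the direction from 2 h to 6 h is not a result.

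Against 4 h and 9 h no difference in the effect was called. limma with adjustment gave 0 genes for 6 h minus 4 h and 0 for 6 h minus 9 h, with 157 and 155 genes at an unadjusted p under 0.05. The median half-width of the 95% interval of these differences was 0.918 on the log2 scale, and the median size of the difference was 0.34 and 0.30, so differences of this size were mostly not detectable with 2 libraries a group. With the replicate number as a block each comparison gave 2 genes. Among the 353 genes that rose at 6 h, the highest of the 6 effects fell at 6 h in 191, at 4 h in 32, at 9 h in 36 and at 12 h in 62, and among the 945 genes that fell the lowest effect fell at 6 h in 359 and at 4 h in 231. These counts are of estimates, made on genes chosen at 6 h, and carry no test. The mock cells themselves did not differ from cells at 0 h in any gene past the threshold in limma, with 67 genes at an unadjusted p under 0.05, and 0 and 185 with the block.

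Markers of cell types were measured alongside. Itgax, which encodes the dendritic cell integrin Cd11c, stood at 1037 and 619.8 TPM in the mock libraries and 867 and 662 TPM in the LPS libraries (-0.08 ± 0.38), and the myeloid genes Ctss and Lyz2 at 0.04 ± 0.24 and -0.09 ± 0.79. Of 14 genes of dendritic cell and macrophage identity 1 rose and 3 fell, and the 3 were Coro1a and Mrc1 described above and Irf4, whose call was lost after rescaling. Their summed level was 69033 and 28483 TPM in the mock libraries and 53577 and 41541 TPM in the LPS libraries. Granule genes of neutrophils and their precursors were present, with 0 of 11 called and sums of 7120.3 and 3245 TPM in mock and 5062 and 3486 TPM in LPS libraries. S100a8 stood at 2458 and 749 TPM in the mock libraries and 1115 and 665 TPM in the LPS libraries. In both lists mock replicate 1 was the highest library and mock replicate 2 the lowest. Of 5 genes of mast cells, basophils and eosinophils 0 were called. Of 2 genes of erythroid and megakaryocyte cells 1 rose, by 2.01 and also after rescaling, while Pf4 of megakaryocytes stood at 0.18 ± 0.31. Whether the share of other cells in each library plays a part in the changes above was not tested. The lists of 20 markers of T and NK cells and 15 of B and plasma cells had 0 measured members, so nothing can be said of these cells here.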

How the data were processed

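The deposited values are TPM per gene, a unit normalized by the authors, for 3147 rows in 26 RNA libraries. Per the submitters' processing notes, Bowtie 0.12.7, RSEM 1.2.3 and the mouse build mm9 were used. How the genes were selected is not given in the sources used here. Rows with several names (363) were kept as deposited. Levels were analysed as log2(TPM + 1) in limma 3.58.1 (R 4.3.3, lmFit and eBayes with trend), with 1 mean for each of 13 groups and 13 residual degrees of freedom. Genes needed 1 TPM in at least 2 libraries, which all 3147 had. Two-sided p-values were Benjamini-Hochberg adjusted over all genes tested and called under 0.05. The script was tested on simulated data.

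Gene lists (33 pathway lists and 7 cell type lists) and the comparison itself were chosen with earlier results of these data known, so lists are described by counts and medians and not tested. Genes were named by a rule: the 14 largest log2 rises and falls among called genes without overlap, the 6 largest each way in TPM, the 6 largest each way in the difference between 2 h and 6 h, and per list the 3 called members with the largest change and the most abundant member. Not all of these are printed, and other genes named with their list were chosen after their values were seen. Alternatives were other pseudocounts (0.1 and 5 TPM), filters, median-ratio rescaling, quantile normalization, a replicate block, the compared groups alone, other thresholds and each library left out. Removal of length and GC trends (loess, 3124 genes with a transcript length) and rescaling with the block were added after seeing the data. Promoters come from RefSeq on GRCm38.p6, matched by symbol. Depth is unknown from TPM, and no counting intervals are given. Results for some genes are not reported here.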

Additional observations from a re-analysis of the deposited data

Results flagged for a closer look

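The effect of LPS differed between 2 h and 6 h in 225 genes by limma's test of the difference itself. It was more positive at 6 h in 79 genes and more negative in 146. With a replicate block these counts were 189 and 422, but after rescaling they were 138 and 71 and with quantile normalization 88 and 53, where more genes were more positive at 6 h.

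Altogether 4 genes were called in opposite directions at both times. Lipe went from -1.16 ± 0.23 at 2 h to 0.67 ± 0.23 at 6 h, a difference of 1.83 on the log2 scale. Iqsec1 went from 0.85 ± 0.27 to -1.81 ± 0.27, a difference of -2.66. The row limd1;Limd1, a LIM domain protein, went from 0.65 ± 0.16 to -0.46 ± 0.16, a difference of -1.11, which had an adjusted p of 0.098 when only the compared groups entered the fit. Ppfibp1, a liprin, went from 0.76 ± 0.25 to -0.64 ± 0.25, a difference of -1.41 with an adjusted p of 0.021. That call was lost after rescaling (adjusted p = 0.064), with quantile normalization (0.13), with the compared groups alone (0.12) and without 5 of the 8 libraries, each in turn.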

How the results depend on the processing

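The count at 6 h stayed within 1.5 times of 1298 in every alternative run, from 874 with the compared groups alone to 1818 with the replicate block, but the split moved from 353 rises and 945 falls to 568 and 464 with rescaling, 446 and 511 with quantile normalization and 566 and 431 with length and GC trends removed. Rescaling with the block gave 781 and 692.

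For 6 h minus 2 h the 225 calls became 141 with quantile normalization, 611 with the replicate block, 76 with the compared groups alone and 114 to 186 without single libraries. For 6 h minus 4 h the block gave 2 calls and leaving out single libraries 0. For 6 h minus 9 h the block gave 2 calls and leaving out single libraries 0 to 2, with 1 without LPS replicate 1 of 6 h and 2 without LPS replicate 1 of 9 h. The cause was not tested.

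The replicates share only a number in the labels. The difference of replicate 2 from replicate 1 had a correlation of 0.648 across genes between LPS and mock at 6 h, as a hint from the data. With the block the number of falls over all 3147 genes went from 945 to 1351. It went from 5 to 33 of 71 cytosolic ribosomal proteins, from 17 to 31 of 58 in oxidative phosphorylation and from 2 to 10 of 37 in ER folding.

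Of 150 named genes, calls were lost for 17 after rescaling, 14 with quantile normalization, 13 with the compared groups alone and 18 with length and GC trends removed, and in 61 cases without a single library. Ftl1 turned to 0.017 with those trends removed. Having 2 libraries a group limits what can be called, and depth is unknown from TPM.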

Other observations

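Most called genes lie outside the pathway lists, which hold 143 of the 353 rises and 263 of the 945 falls. Among the largest rises in no list, Gm4902 went from 32.3 and 10.1 to 784 and 817 TPM (5.38 ± 0.41, 4.59 to 6.17 without single libraries). Kynu, an enzyme of tryptophan breakdown, changed by 4.10 ± 0.36, and 1600014C10Rik by 2.99 ± 0.26. Among the largest falls, Gmpr, a GMP reductase, stood at 43.9 and 45.1 TPM in the mock libraries and 2.46 and 4.74 TPM in the LPS libraries (-3.35 ± 0.42). Hip1, which links clathrin to actin, went from 45.0 and 54.4 to 4.23 and 5.53 TPM (-3.11 ± 0.27), and Sash3, a lymphoid adaptor protein, from 67.6 and 50.6 to 6.68 and 5.10 TPM (-3.12 ± 0.31). Mical1, an enzyme that oxidises actin, went from 104 and 68.6 to 9.46 and 4.13 TPM (-3.54 ± 0.37). As in all 1298 called genes, the LPS and mock libraries of these genes did not overlap, which held for 69.1% of all genes.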
